A study of Gallus gallus with 5 samples.

Results

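The posterior mesodermal progenitors described here are donor cells of HH8 chick embryos that had been grafted into the primitive streak of younger HH4 hosts (Hamburger-Hamilton stages, in which HH4 embryos have a full-length streak and HH8 embryos their first somites). They were recognised among single-cell RNA-sequencing barcodes by 2 posterior HOX genes. A member was a barcode of an HH8-HH4 library with at least 2000 UMIs (unique molecular identifiers, each standing for 1 captured mRNA molecule), 3 or more eGFP UMIs, HOXA7 plus HOXB8 at or above 1000 CPM (UMIs per 1000000 UMIs of that barcode), and TFAP2A plus DLX5, a pair of ectoderm genes, below 3 UMIs. The rule was met by 62 of 121 donor barcodes at 3 hr and by 1458 of 2030 donor barcodes at 0 hr, where a donor barcode is any barcode with 3 or more eGFP UMIs. These 1520 members stood among 943 barcodes of the 3 hr library, 4038 barcodes of the 0 hr library and 11137 barcodes of the whole series. The last number counts both HH4-HH4 0 hr replicates, which share 2755 barcodes.

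The study asked whether medial somite progenitors, which lie in the anterior primitive streak, keep their own timing when they are moved to a younger embryo. Donor tissue came from a GFP-transgenic chicken line and hosts were wild type, kept in New Culture (the whole embryo grown outside the egg), and the pieces of several embryos were pooled before dissociation with trypsin and 10x Genomics 3′ capture. The HH8-HH4 3 hr sample holds HH8 donor tissue collected after 3 hr in an HH4 host together with host cells dissected with it, and the HH8-HH4 0 hr sample holds the same kind of graft collected at 0 hr. HH4-HH4 grafts at both times are used below only as a background for the rule. The transgene marks all cells of the donor, so eGFP separates donor from host and no cell type within the donor.

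The primitive streak and, later, the tailbud hold progenitors that feed mesoderm into the trunk as the axis grows towards the tail. Such progenitors are known for T (brachyury), CDX transcription factors and FGF and WNT ligands, and cells that leave them as presomitic mesoderm switch on TBX6 and MSGN1. HOX genes are switched on in the order of their place in each cluster, so that the most 5′ gene a progenitor expresses reads out how far along the axis it has progressed.

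Both HH8-HH4 libraries are single, so that 3 hr and 0 hr differ in time and in library, which cannot be told apart, and no test between them was made. The 3 hr library was shallow as a whole, with a median of 981 UMIs over its 943 barcodes, against 8896 over the 4038 barcodes of the 0 hr library. Its members were the deeper ones, with a median of 18404.5 UMIs at 3 hr and 8556.5 at 0 hr. Other donor barcodes had medians of 18817 and 9663.5 UMIs, and host barcodes (0 eGFP UMIs and at least 2000 UMIs) 20814 and 9039. The libraries shared 1 barcode, which was not a member. Doublet calls fell on 0 of 62 members at 3 hr and 43 of 1458 at 0 hr. Among other donor barcodes they fell on 4 of 59 at 3 hr and 20 of 572 at 0 hr. Of the 0 hr calls on other donors, 13 were among the 85 donors under the HOX limit. Doublets were kept, so comparisons with other donors include them.

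The limits of the rule did not cut through an empty range. The lowest HOXA7 plus HOXB8 sum inside was 1049 CPM at 3 hr and 1000 at 0 hr, and the highest just outside was 957 and 989. Within 20% of the limit lay 3 members and 1 other barcode at 3 hr, and 58 members and 29 others at 0 hr. TFAP2A plus DLX5 reached 2 UMIs in 6 members at 3 hr and 177 at 0 hr, and 3 UMIs, just outside, in 2 and 109 barcodes. This limit is an absolute number of UMIs, so it weighs more on deep barcodes, and the 3 hr barcodes were deeper.

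Members made up 51.2% of donor barcodes at 3 hr (exact Clopper-Pearson 95% interval 42.0% to 60.4%) and 71.8% at 0 hr (69.8% to 73.8%). Intervals here and below cover counting error only, not the spread between embryos or libraries. With 1 eGFP UMI as the donor limit the shares were 23.2% and 66.1%, and with TFAP2A plus DLX5 below 1 UMI they were 32.2% and 45.1%. Of the 59 other donor barcodes at 3 hr, 24 were above the HOX limit with 3 or more TFAP2A plus DLX5 UMIs, 30 were under the HOX limit and 5 had under 2000 UMIs. Of the 572 others at 0 hr, 486 were above the HOX limit with 3 or more TFAP2A plus DLX5 UMIs, 85 were under the HOX limit and 1 had under 2000 UMIs. The other donors were thus mostly TFAP2A- or DLX5-bearing cells at 0 hr and a more even mixture at 3 hr, and this make-up stands behind every comparison with them.

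The rule was seldom met where no HH8 donor cell should be. Among host barcodes, 0 of 232 met the HOX and ectoderm limits at 3 hr, which allows a share of up to 1.29%, and 6 of 1726 did at 0 hr (0.348%). Among HH4 donor barcodes of the HH4-HH4 libraries, 0 of 74 met the rule at 3 hr, which allows up to 4.05%, and 0 of 721 at 0 hr, which allows up to 0.416%.

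Levels are UMIs summed over a group's barcodes, again in CPM, with an exact Poisson 95% interval. HOXA7, which chose the members, stood at 2333 CPM in members at 3 hr (2243 to 2425) and 2369 CPM in members at 0 hr (2343 to 2396), against 20.3 and 24.5 CPM in hosts. HOXB8, also used by the rule, stood at 1351 CPM (1283 to 1422) and 1179 CPM (1161 to 1198) in members, against 7.33 and 14.8 CPM in hosts. Per barcode the HOXA7 plus HOXB8 sum had a median of 3200 CPM and quartiles of 2150 and 4638 at 3 hr, and a median of 3221 and quartiles of 2132 and 4474 at 0 hr. The rule set the lower end of these sums at both times. HOXA7 outnumbered HOXB8 in 48 of 62 members at 3 hr and 1073 of 1458 at 0 hr.

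The 3 markers that the rule did not use were all higher in members than in hosts. The paper lists all 3 as higher in HH8-derived than in HH4-derived cells in part of the same data. Their order against hosts is thus a description and no separate support for the rule. CDX4, a caudal-type factor that activates trunk HOX genes, was at 688 CPM in members at 3 hr (639 to 739) and 1153 CPM at 0 hr (1135 to 1171), against 19.9 and 132 CPM in hosts. MSX1, a homeobox gene that responds to BMP, was at 469 (429.6 to 512) and 1695 CPM (1673 to 1717) in members, against 110.2 and 224 CPM in hosts. WNT5A, a ligand of non-canonical WNT signalling, was at 362 (327 to 399.6) and 600.3 CPM (587 to 614) in members, against 44.2 and 109 CPM in hosts.

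None of these 3 was past 2-fold between members and the other donor barcodes. CDX4 was at 436 and 987 CPM in other donors at 3 hr and 0 hr, MSX1 at 458 and 2078 CPM, and WNT5A at 218 and 649 CPM. Their log2 ratios of members to other donors ran between -0.29 and 0.71 over both times. All 3 thus set HH8 donor barcodes apart from the HH4 hosts more widely than they set members apart from the other donors.

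**Figure D1:**
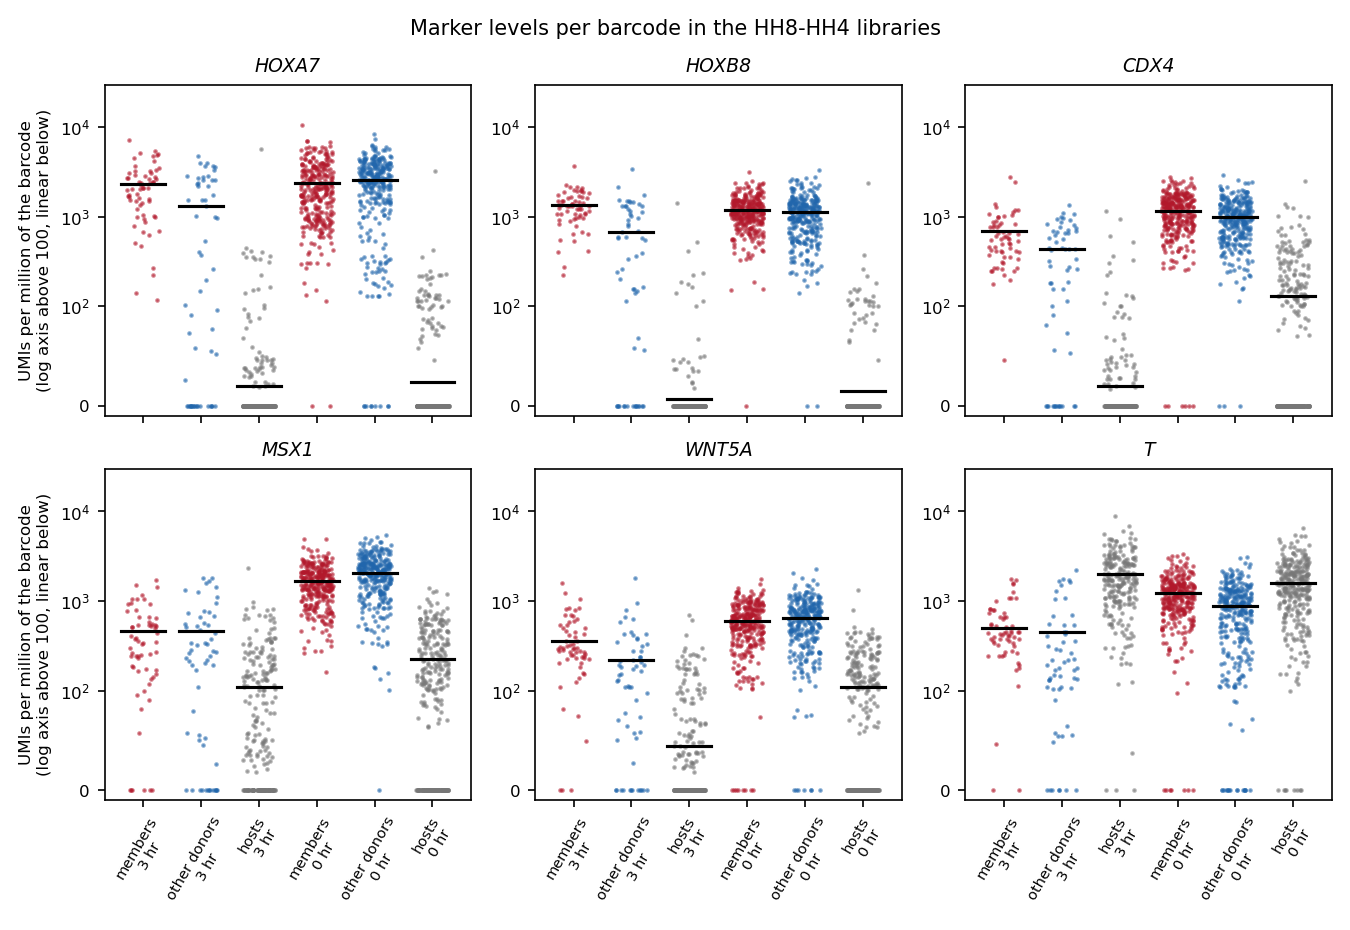
Levels of the 5 markers and T per barcode, in CPM on an axis that is logarithmic above 100 and linear below, for members, other donor barcodes and host barcodes at 3 hr and 0 hr, with up to 300 barcodes drawn per group and a black line at the level summed over all barcodes of the group. CDX4, MSX1 and WNT5A lie above the hosts in both donor groups, and MSX1 in members sits at 469 CPM at 3 hr and 1695 CPM at 0 hr.

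Since depth differs between the times, the share of barcodes with a UMI was also taken after 2000 UMIs had been drawn from each. CDX4 was then found in 72.6% of members at 3 hr and 88.5% at 0 hr, against 4.74% and 18.6% of hosts. WNT5A was found in 56.5% and 66.5% of members, and MSX1 in 45.2% and 94.4%. The MSX1 intervals (exact Clopper-Pearson) were 32.5 to 58.3% at 3 hr and 93.1 to 95.6% at 0 hr. They cover counting error within each library and are no test between the 2 times. Hosts had an MSX1 UMI in 21.6% and 29.1% of barcodes. MSX1 was thus nearer to its share in hosts at 3 hr than at 0 hr.

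The label of mesodermal progenitors was set beside genes of paraxial mesoderm and of other fates. The 19 measured paraxial mesoderm genes summed to 1161 CPM in members at 3 hr and 1926 CPM at 0 hr. Other donors had 1360 and 1273 CPM, and hosts 2426 and 4095 CPM, so members were below hosts at both times. At 3 hr members were below the other donors as well. This sum thus did not mark members as mesoderm at 3 hr, and the word mesodermal is kept as a label that rests on the rule. MSGN1 had no UMI in 41 of 62 members at 3 hr and 569 of 1458 at 0 hr. T was at 499.6 CPM in members at 3 hr (459 to 543) and 1235 CPM at 0 hr (1216 to 1254), below its level in hosts (2004 and 1600.2 CPM), and 60 of 62 and 1438 of 1458 members had at least 1 T UMI. SOX2, the neural partner of T in neuromesodermal progenitors, was at 2.75 and 9.65 CPM, and its share of members after thinning was 1.61% and 1.65%, against 1.29% and 1.45% of hosts. T and SOX2 UMIs were found together in 3 members at 3 hr and 114 at 0 hr, and SOX2 with MSGN1 in 0 and 44. At 0 hr SOX2 was at 3.08 CPM (1.76 to 5.01) in members with MSGN1 at or above 200 CPM and 16.1 CPM (12.8 to 20.1) in members with no MSGN1 UMI.

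Over the 18 neural plate genes asked for, 13 were measured and their summed level in members was 201 CPM at 3 hr and 206 CPM at 0 hr, against 208 and 222 CPM in other donors and 357 and 511 CPM in hosts. The 11 blood and endothelial genes measured summed to 119 and 96.6 CPM in members, against 232 and 121 CPM in other donors and 31.4 and 45.3 CPM in hosts. The endothelial receptor KDR was at 13.8 and 20.4 CPM and TAL1, a master factor of blood, at 4.58 and 0.226 CPM. The node and notochord factors FOXA2 and SHH were at 1.83 and 0 CPM at 3 hr and 6.41 and 0.0754 CPM at 0 hr. The node and notochord list, which holds T, summed to 796 and 1416 CPM in members, against 1151 and 1083 CPM in other donors and 4840.5 and 2989 CPM in hosts.

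Ectoderm and endoderm genes gave a less uniform picture. The 14 measured ectoderm genes, which include the pair of the rule, summed to 1123 CPM in members at 3 hr and 1142 CPM at 0 hr, against 2045 and 2773 CPM in other donors. Hosts had 2280 and 2060 CPM. E-cadherin (CDH1), the adhesion molecule of epithelia, was at 42.2 and 30.4 CPM in members, beside 671 and 1160.2 CPM for N-cadherin (CDH2), and the epithelial adhesion molecule EPCAM was at 424 and 412 CPM. CLDN1, a tight-junction gene of the ectoderm list, had 597 of the 1090869 UMIs of members at 3 hr and 6344 of 13260381 at 0 hr. The 14 endoderm genes summed to 341 and 369.5 CPM in members, against 1174 and 867 CPM in other donors. Their sums in hosts were 1293 and 1705 CPM. APOA1, an apolipoprotein of liver and yolk sac, had 65 UMIs in members at 3 hr, and 1 barcode held 73.8% of them and, at 0 hr, 62.7%.

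The HOX genes were the first group read for position along the axis. Of 36 HOX genes asked for, 23 were measured, and their sum in members was 4912 CPM at 3 hr and 4680.1 CPM at 0 hr, against 2835 and 4843 CPM in other donors and 236 and 419 CPM in hosts. HOXA7 and HOXB8, which chose the members, supplied most of this sum. At 3 hr 30 of the 59 other donors were there for being under the HOX limit. The gap between members and other donors in this sum was thus set in part by the rule. A 3′ capture counts molecules and not length, but capture differs from gene to gene, so levels are compared between groups and not between HOX genes.

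Among 3′ genes of the clusters, HOXB1 was at 289 CPM in members at 3 hr and 367 CPM at 0 hr, and HOXA2 at 44 and 87.5 CPM. The central genes HOXA4, HOXA5 and HOXA6 differed little between the times. HOXA4 stood at 208 and 175 CPM, HOXA5 at 121 and 129 CPM and HOXA6 at 137 and 143 CPM. HOXB5, also central, was higher at 3 hr, at 93.5 and 46.5 CPM. Its log2 ratio of 0.87 was larger than that of HOXA9 below. Each of these stayed within 2-fold between the times, with 10 CPM added to both levels.

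The HOX genes past 2-fold between the times were HOXC9 and HOXD8, both from the 5′ side of the clusters. HOXC9 was at 58.7 CPM in members at 3 hr (45.2 to 74.9) and 8.97 CPM at 0 hr (7.43 to 10.7), a log2 ratio of 1.86, and HOXD8 at 38.5 (27.7 to 52) and 13.9 CPM (11.9 to 16), a log2 ratio of 1.02. HOXA9 was at 77.9 (62.2 to 96.3) and 41.9 CPM (38.5 to 45.6), 0.76 on the log2 scale, and so under 2-fold. HOXC8 was at 24.8 and 4.15 CPM, with 27 and 55 UMIs, too few to be counted. The 7 measured HOX genes at position 10 to 13 had 0 or 1 UMI each in members at 3 hr.

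HOXC9 was found in 24 of 62 members at 3 hr and 105 of 1458 at 0 hr. After thinning it was found in 8.06% of members at 3 hr (2.67 to 17.8%) and 1.78% at 0 hr (1.17 to 2.6%), against 0% and 0.0579% of hosts. In other donors HOXC9 was at 36.7 CPM at 3 hr and 30.5 CPM at 0 hr, a log2 ratio of 0.21 between the times, beside 1.86 in members. Other donors under the HOX limit numbered 30 of 59 at 3 hr and 85 of 572 at 0 hr. The part of this change in their HOXC9 ratio was not tested. Of the 13 HOX genes with enough UMIs to be compared between the times, 2 were over 2-fold higher at 3 hr, 0 were over 2-fold lower, and the median log2 ratio was 0.24 beside 0.01 over all genes compared. By sign alone, 7 of the 13 were higher at 3 hr and 6 lower.

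**Figure D2:**
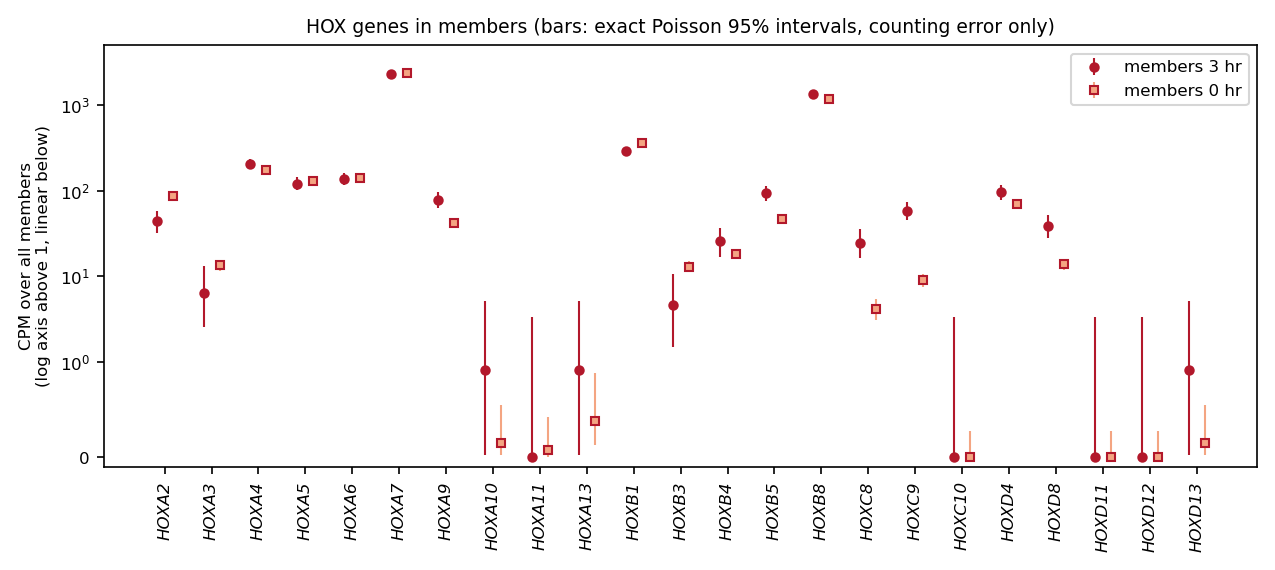
Levels of the measured HOX genes in members at 3 hr and 0 hr, in CPM on an axis that is logarithmic above 1 and linear below, ordered by cluster and position, with exact Poisson 95% intervals. HOXD8, HOXA9 and HOXC9 lie higher at 3 hr, with HOXC9 at 58.7 CPM at 3 hr and 8.97 CPM at 0 hr. HOXC8, on too few UMIs to be counted, and HOXB8, which chose the members, lie higher at 3 hr too. HOXB5 also lies higher at 3 hr, while HOXA4, HOXA5, HOXA6 and HOXA7 lie close together between the times.

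Members were next set against the other donor barcodes of their own library. The members were defined by their readout, so these ratios describe the groups and test nothing. Ratios are log2 of members over other donors with 10 CPM added to both, and a gene is counted past 2-fold where it had at least 100 UMIs over both groups. At 3 hr 2410 genes were compared, of which 8 were over 2-fold higher in members (0.332%) and 34 over 2-fold lower (1.41%), 1.74% in all. At 0 hr 4034 genes were compared, of which 6 were higher (0.149%) and 47 lower (1.17%), 1.31% in all. The lower genes outnumbered the higher ones at both times, and the median over all genes was 0.01 at both. After all barcodes had been thinned to 2000 UMIs, with fewer genes left to compare, 5 genes were past 2-fold at 3 hr and 32 at 0 hr.

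The genes furthest above the other donors at both times included posterior growth-zone ligands. FGF18 was at 221 CPM in members against 97 CPM in other donors at 3 hr, and at 209.9 against 92.2 CPM at 0 hr, a log2 ratio of 1.11 at both times. FGF8, the FGF that keeps the posterior region unsegmented, was at 413 (375 to 452) against 187 CPM (163 to 213) at 3 hr and 878 (862 to 894) against 467 CPM (449 to 485) at 0 hr. DLL1, the Notch ligand of streak and presomitic mesoderm, had log2 ratios of 1.44 and 1.05. RSPO3, which strengthens WNT signalling at the receptor, had 0.87 and 0.80, under 2-fold at both times.

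The rest of that group spans several functions. The collagen chain gene COL1A2 had log2 ratios of 1.02 at 3 hr and 1.38 at 0 hr, and RASGRP3, an activator of RAS, 1.60 and 0.88. DRAXIN, a secreted WNT antagonist and guidance cue, had 0.89 and 0.98, and ZEB2, a repressor of E-cadherin, 0.62 and 0.65. MYL4, TXNRD1 and CTTNBP2 had ratios from 0.62 to 1.02. Against the donor barcodes under the HOX limit alone, the 0 hr ratios of COL1A2, RSPO3 and ZEB2 turned negative, at -0.017, -0.18 and -0.79. At 0 hr those 3 genes were thus higher in members than in the other donors as a whole and not higher than in donors low in HOX.

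The genes furthest below the other donors included epithelial genes. Keratin 7 (KRT7) was at 4.58 CPM in members against 222 CPM in other donors at 3 hr and 8.3 against 221 CPM at 0 hr, log2 ratios of -3.99 and -3.66. The tight-junction gene CLDN3 had log2 ratios of -3.10 and -3.25, and CGN (cingulin), another tight-junction protein, -1.22 and -1.44. ASTL, an astacin-like protease, had -3.95 and -2.82, and KRT24, a keratin, -1.09 and -2.19. The rule leaves TFAP2A- and DLX5-bearing barcodes among the other donors. Against donors under the HOX limit KRT24 turned to 0.44 at 3 hr and CGN to 0.31 at 0 hr.

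Some stress and metal-binding genes were among those furthest below the other donors. The metallothioneins MT3 and MT4 had log2 ratios of -2.13 and -1.71 at 3 hr and -1.79 and -1.50 at 0 hr. HSPA2, a heat-shock protein, had -1.48 and -2.18, the immediate-early factor JUN -1.08 and -1.29, and NFKBIA, the inhibitor of NF-κB, -1.43 and -2.15. CSRP2, a LIM-domain protein, and ANXA2, a membrane-binding annexin, had -1.89 and -1.09 at 3 hr and -1.99 and -1.33 at 0 hr. As a list, 2 of 14 stress genes compared at 3 hr were over 2-fold lower in members and 0 higher, with a median of -0.38, and at 0 hr 2 of 16 were lower and 0 higher, with a median of 0.07.

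**Figure D3:**
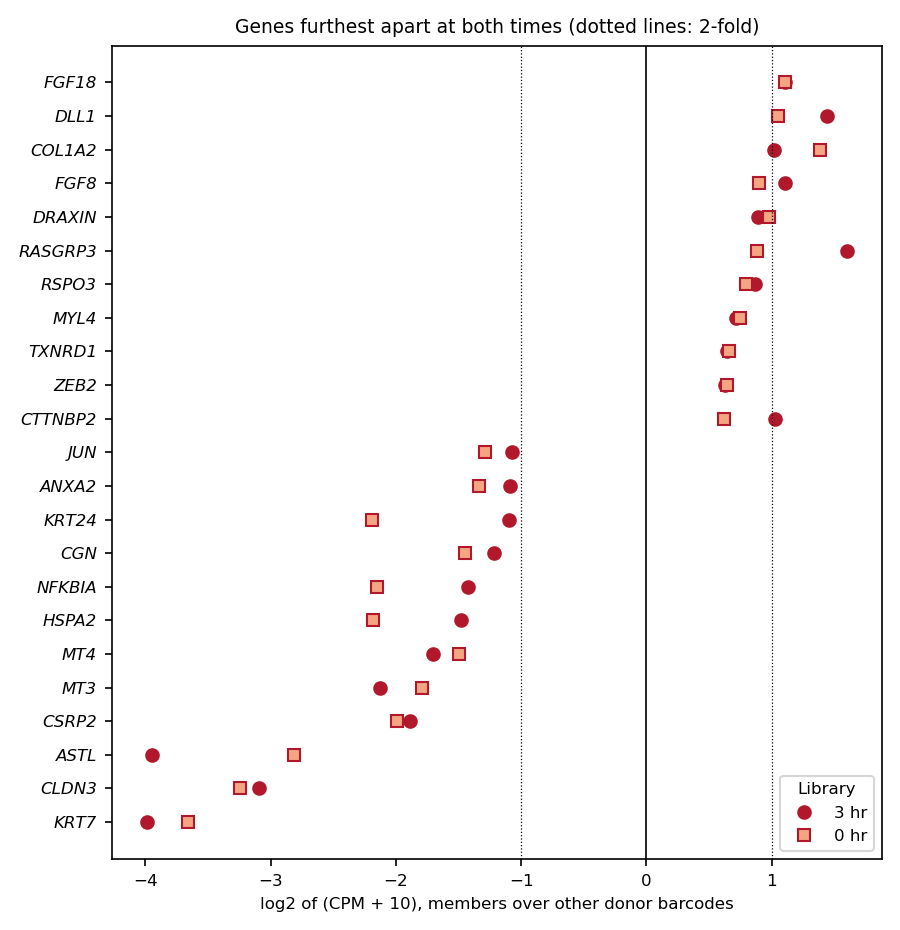
Log2 ratios (10 CPM added) of members over other donor barcodes for the named genes furthest above and furthest below at both times, with circles for 3 hr, squares for 0 hr and dotted lines at 2-fold. KRT7 is lowest, at -3.99 at 3 hr and -3.66 at 0 hr, and FGF18 is at 1.11 at both times.

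Paraxial mesoderm genes differed by time in where members stood. TBX6, which commits cells to presomitic mesoderm, was at 30.3 CPM in members against 31.8 CPM in other donors at 3 hr, a log2 ratio of -0.05, and at 89.3 against 32.4 CPM at 0 hr, a log2 ratio of 1.23. At 3 hr 8 paraxial genes were compared, 1 was higher (DLL1), 3 were lower (MEOX1, AGRP and CXCL14), and the median was -0.77. At 0 hr 15 were compared, 2 were higher (TBX6 and DLL1), 0 lower, and the median was 0.34. MEOX1, a factor of formed somites, was at 13.8 CPM in members and 125 CPM in other donors at 3 hr.

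Other genes low in members at 3 hr were abundant in the host. MIXL1, a streak homeobox gene, was at 51.3 CPM in members, 488 in other donors and 2248 in hosts at 3 hr, and CHRD, the BMP antagonist of the node, at 65.1, 318 and 1647 CPM. At 0 hr members and other donors were near each other for both, at 56.4 against 55.2 CPM for MIXL1 and 20.6 against 25.2 CPM for CHRD. The other donors at 3 hr thus carried host-abundant transcripts, and members carried few. Whether those barcodes held host RNA was not tested.

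HINTW, a W-linked gene, was also lower in members than in other donors at 3 hr. It was over 500 CPM in 1 of 62 members at 3 hr and 30 of 1458 at 0 hr, against 82 of 232 hosts (35.3%) at 3 hr and 776 of 1726 hosts (45.0%) at 0 hr. Among other donors HINTW was over 500 CPM in 4 of 59 at 3 hr and in 13 of 572 at 0 hr. Of the 4 at 3 hr, 2 had under 2000 UMIs and 2 were past the ectoderm limit. None were among the 30 donors under the HOX limit (0 of 30). Its log2 ratio of members over other donors was -2.73 at 3 hr and 0.07 at 0 hr.

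Ventral genes were lower in members at 0 hr. BMP4 was at 40.0 CPM in members against 155 CPM in other donors, with MSX2, a BMP-responsive homeobox gene, at 181 against 484 CPM and GATA2 at 141 against 305 CPM. Of 5 lateral and ventral mesoderm genes compared at 3 hr 0 passed 2-fold either way, with a median of -0.69, and of 10 compared at 0 hr these 3 were over 2-fold lower and 0 were higher, with a median of -0.45. Of 17 BMP pathway genes at 0 hr, BMP4, MSX2 and the BMP target ID3 were lower and 0 higher. BMP4, MSX2 and GATA2 are also known from ectoderm beside the neural plate, and at least 486 of the 572 other donors at 0 hr had 3 or more TFAP2A plus DLX5 UMIs.

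Among the signalling lists, axial progenitor genes had 2 of 15 compared over 2-fold higher in members at 3 hr (FGF8 and FGF18), 0 lower and a median of 0.28. At 0 hr 1 of 19 was higher (FGF18), 0 were lower and the median was 0.08. WNT pathway genes had 0 of 12 past 2-fold at 3 hr, and at 0 hr 1 of 26 lower (WNT6) and 0 higher, with medians of 0.07 and -0.01. Notch genes had DLL1 alone past 2-fold at both times, of 7 and 9 compared. Retinoic acid genes had 0 of 1 and 0 of 5 past 2-fold. FGF pathway genes had 2 of 8 higher at 3 hr (FGF8 and FGF18) and 1 lower (the receptor FGFR3), with a median of 0.20, and 1 of 17 higher at 0 hr (FGF18) and 0 lower, with a median of 0.07.

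HOX genes other than the pair of the rule were within 2-fold of the other donors at 3 hr, with 0 of 8 past it and a median of 0.61. At 0 hr 1 of 14 was lower in members and 0 higher, the median was 0.01, and the lower gene was HOXC9, at 8.97 CPM (7.43 to 10.7) in members against 30.5 CPM (26.2 to 35.4) in other donors. Endoderm genes had 5 of 6 lower at 3 hr (GATA5, APOA1, CLDN3, CER1 and KRT7), with a median of -2.40, and 2 of 12 lower at 0 hr (CLDN3 and KRT7), with a median of -0.52, and 0 higher at either time. Ectoderm genes outside the rule had KRT7 lower of 5 compared at 3 hr and GATA2, KRT7, CDH1 and PAX7 lower of 6 at 0 hr, and again 0 higher. EMT and cadherin genes had CDH11 lower at 3 hr, of 11, and CDH2 higher and CDH1 lower at 0 hr, of 15, where CDH2 was at 1160.2 CPM in members and 560.4 CPM in other donors.

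Members at 3 hr were then compared with members at 0 hr. Of 3854 genes with at least 100 UMIs over both, 75 were past 2-fold (1.95%), of which 30 were higher at 3 hr (0.778%) and 45 lower (1.17%). Members held 1090869 UMIs at 3 hr and 13260381 at 0 hr, so a gene high only at 0 hr passed this filter at a lower CPM. A gene high only at 3 hr needed a higher CPM. This bears on all counts of higher and lower genes between the times, HOX genes included. The median log2 ratio over all genes was 0.01 in members, and it was -0.03 in hosts over the same genes. After thinning to 2000 UMIs 132 genes were past 2-fold. Where values of other donors and hosts stand beside a gene below, they come from the same 2 libraries, and some genes are given for members alone.

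Among the genes furthest up were LEFTY1 and MNX1. LEFTY1, a secreted Nodal antagonist, was at 90.8 CPM in members at 3 hr (73.8 to 110.5) and 8.14 CPM at 0 hr (6.68 to 9.83), a log2 ratio of 2.47, and it was also higher at 3 hr in other donors (2.81) and hosts (2.36). After thinning, LEFTY1 was in 9.68% of members and 40.9% of hosts at 3 hr, so its share in members lay below that in hosts.

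MNX1 is a homeobox gene known from motor neurons and the notochord. It was at 117 CPM at 3 hr (97.9 to 139.5) and 6.18 CPM at 0 hr (4.92 to 7.68), a log2 ratio of 2.98, against 0.94 in other donors and -0.01 in hosts. It was found in 37 of 62 members at 3 hr and 74 of 1458 at 0 hr, and after thinning in 19.4% (10.4 to 31.4%) and 1.1% (0.629 to 1.78%), against 0% and 1.39% of hosts. MNX1 and HOXC9 UMIs were found together in 14 of 62 members at 3 hr, with MNX1 alone in 23 and HOXC9 alone in 10.

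PMP22, a membrane protein of myelin and junctions, was at 79.8 CPM in members at 3 hr (63.9 to 98.4) and 5.96 CPM at 0 hr (4.72 to 7.42), a log2 ratio of 2.49 beside 2.10 in other donors and 0.01 in hosts. SERPINH1, the collagen chaperone, was 1.60 higher on the log2 scale, ALCAM, an adhesion molecule, 1.43, and S100A6, a calcium-binding protein, 1.34. Others were HOXC9, LBH (1.52), RAD54L, a recombination repair protein (1.46), and RN7SL1, the RNA of the signal recognition particle (1.61). PMP22 was thus past 2-fold in other donors too and near 0 in hosts, and SERPINH1 was at 1.57 in other donors and 0.92 in hosts.

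**Figure D4:**
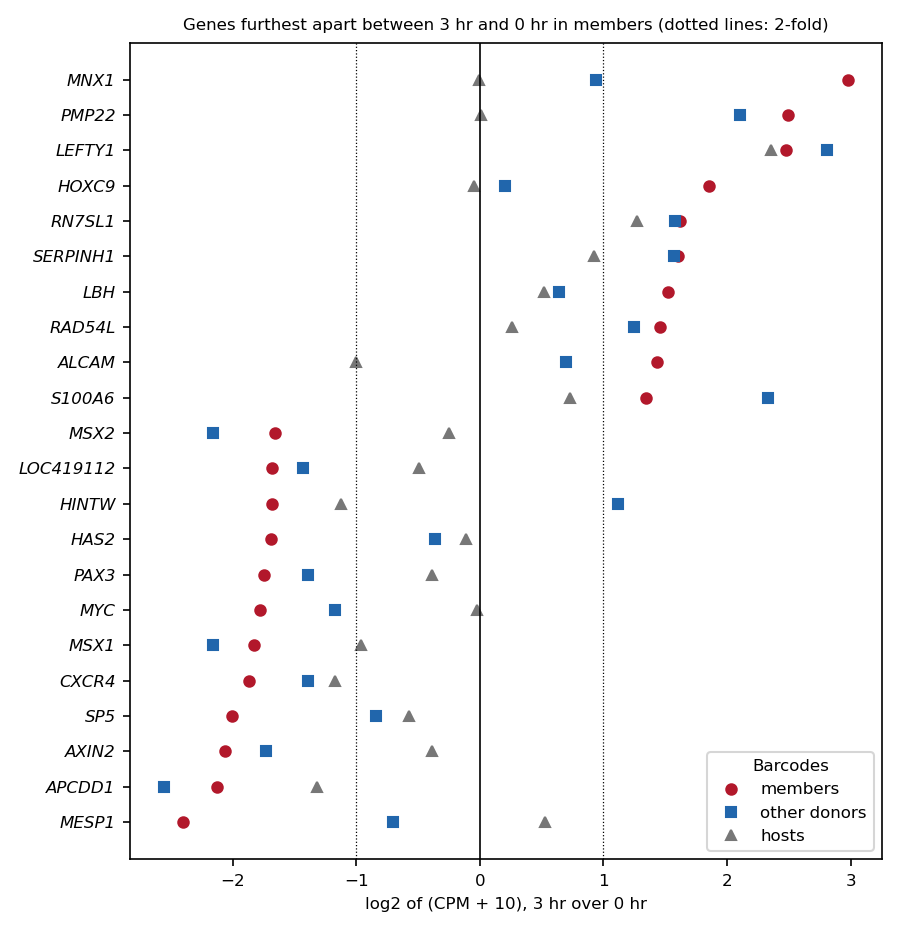
Log2 ratios (10 CPM added) of 3 hr over 0 hr for the named genes furthest up and furthest down in members, with the same ratio in other donor barcodes and hosts and dotted lines at 2-fold. MNX1 is at 2.98 in members and -0.01 in hosts, and MESP1 at -2.40 in members and 0.53 in hosts.

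Lower at 3 hr were targets of WNT signalling. AXIN2, the feedback inhibitor of canonical WNT signalling, was at 25.7 CPM in members at 3 hr (17.1 to 37.1) and 139 CPM at 0 hr (133 to 146), a log2 ratio of -2.06, beside -1.73 in other donors and -0.39 in hosts. SP5, a WNT-target zinc-finger factor, was at 70.6 (55.7 to 88.2) and 313 CPM (304 to 323), and APCDD1, a membrane WNT inhibitor, had a log2 ratio of -2.13, beside -2.55 and -1.31. LEF1, the nuclear partner of β-catenin, had -1.27, and the receptor FZD10 -1.62.

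As a list, 24 WNT pathway genes were compared, 0 were over 2-fold higher at 3 hr and 5 lower (WNT5B, FZD10, AXIN2, LEF1 and SP5), with a median of -0.26 beside 0.01 over all genes. Not all WNT ligands were lower. WNT8A was at 473 CPM at 3 hr and 332 CPM at 0 hr, and WNT3A at 102 and 127 CPM, while WNT5B was at 35.8 and 118 CPM.

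Some axial progenitor genes were over 2-fold lower at 3 hr. T had a log2 ratio of -1.29 in members, beside -0.92 in other donors and 0.32 in hosts, and FGF8 had -1.07, beside -1.28 and -0.66. Of 18 axial progenitor genes compared 0 were higher and 5 lower (T, FGF8, FGF19, WNT5B and SP5), and the median was -0.62. CDX2, a caudal-type factor like CDX4, was at 428 and 703 CPM, and SALL4, a pluripotency-associated zinc-finger factor, at 449 and 444 CPM. CDX2, CDX4 and SALL4 stayed within 2-fold.

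Presomitic mesoderm genes were also lower in members. MESP1, which marks nascent mesoderm, was at 28.4 CPM in members at 3 hr (19.3 to 40.3) and 192 CPM at 0 hr (185 to 199.9), a log2 ratio of -2.40, beside -0.70 in other donors and 0.53 in hosts. MSGN1, a target of TBX6 and WNT in presomitic mesoderm, was at 79.8 (63.9 to 98.4) and 255 CPM (247 to 264), and hosts had 475 and 940.2 CPM. TBX6 was at 30.3 (20.8 to 42.5) and 89.3 CPM (84.3 to 94.5). PAX3, a factor of somite and dorsal neural cells, had a log2 ratio of -1.74, on 13 UMIs at 3 hr and 840 at 0 hr. After thinning MSGN1 was in 12.9% of members at 3 hr (5.74 to 23.9%) and 31.5% at 0 hr (29.1 to 33.9%). The 19 measured paraxial genes summed to 1161 CPM in members at 3 hr and 1926 CPM at 0 hr. Other donors had 1360 and 1273 CPM, and hosts 2426 and 4095 CPM. Donors under the HOX limit were 30 of 121 at 3 hr and 85 of 2030 at 0 hr. Whether donors rich in these genes left the rule between the times was not tested.

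Of 13 paraxial genes compared 0 were higher at 3 hr and 5 lower (TBX6, MSGN1, MESP1, PAX3 and CXCL14), with a median of -0.88. SNAI2, which drives the loss of epithelial contacts, had -1.42 and was the only gene of 15 EMT and cadherin genes past 2-fold, CDH2 being at -0.78. CXCR4, a chemokine receptor of migrating mesoderm, had -1.86, beside -1.39 in other donors and -1.17 in hosts. HAS2, which makes hyaluronan, had -1.69, beside -0.36 and -0.11, on 15 UMIs in members at 3 hr and 882 at 0 hr. Of the 3 groups members thus had the largest drop in HAS2 and MESP1, a difference that was not tested.

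BMP-responsive homeobox genes formed the last group that was lower. MSX1 had a log2 ratio of -1.83 in members, beside -2.16 in other donors and -0.96 in hosts, and MSX2 -1.66, beside -2.16 and -0.25. GATA2 was at 45.8 CPM at 3 hr and 141 CPM at 0 hr. Of 17 BMP pathway genes 1 was higher (CHRD) and 2 were lower (MSX1 and MSX2), with a median of -0.39. CHRD was at 65.1 CPM in members at 3 hr and 20.6 CPM at 0 hr, beside 1647 and 435 CPM in hosts. The part of host RNA in the CHRD of members was not tested.

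MYC, the growth-promoting factor, had -1.78 in members, beside -1.17 in other donors and -0.02 in hosts, and LOC419112 had -1.68. HINTW had -1.68, and with members of over 500 CPM of HINTW left out it had 0.24. Of 16 FGF pathway genes 0 were higher and 3 lower (FGF8, FGF10 and FGF19), with a median of -0.26. Notch genes had 0 of 9 past 2-fold and a median of 0.18, and the cycling gene LFNG was at 417 and 367 CPM.

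The members also differed among themselves at each time. Overdispersion (variance beyond counting noise, divided by the squared mean) was taken for 1538 genes and had a median of 0.0591 at 3 hr and 0.0371 at 0 hr. The most variable at both times included MT4, PTN, HAPLN1, CLDN1 and HOXB5, the cycle genes CENPF and KPNA2, the heat-shock gene HSPB9 and the histone genes HIST1H103, HIST1H3H and H2AFJ. PTN, a heparin-binding growth factor, had an overdispersion of 2.07 at 3 hr and 2.31 at 0 hr, and CLDN1, a tight-junction protein, 1.17 and 0.792. CENPF and histone genes vary with the cell cycle.

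The levels of 30 genes, as residuals given each barcode's depth, were correlated in pairs over members, and the 17 genes plotted and the pairs named were picked after their values were seen. Pearson correlations are given as a description, with no p, since barcodes of 1 library share its depth and free RNA. HOXA7 went with FGF8 (r = 0.64 over 62 members at 3 hr and 0.39 over 1458 at 0 hr) and with CDX2 (0.44 and 0.30). T went with FGF8 (0.47 and 0.36) and DLL1 (0.42 and 0.32). HOXB8 went with CDX4 (0.37 and 0.25), which was the highest for HOXB8 among 1537 genes by the smaller of its 2 values.

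Genes of ingressing mesoderm ran against HOXA7, but not against every gene named above. HOXA7 ran against CDH2 (-0.32 and -0.48), SNAI2 (-0.31 and -0.41) and MSGN1 (-0.30 and -0.43). MSGN1 went with SNAI2 (0.66 and 0.29) and CXCR4 (0.66 and 0.29), and HAPLN1, a link protein of hyaluronan matrix, with PTN (0.61 and 0.33). DLL1 went with CDH2 (0.61 and 0.21) and not with HOXA7 (-0.04 and -0.09). T with CDH2 was at 0.13 and -0.05. HOXA7 took part in choosing the members, but the rule bounds the sum of HOXA7 and HOXB8 from below and not HOXA7 alone. At 0 hr 9 members had 0 HOXA7 UMIs. The part of this limit in the correlations was not tested.

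**Figure D5:**
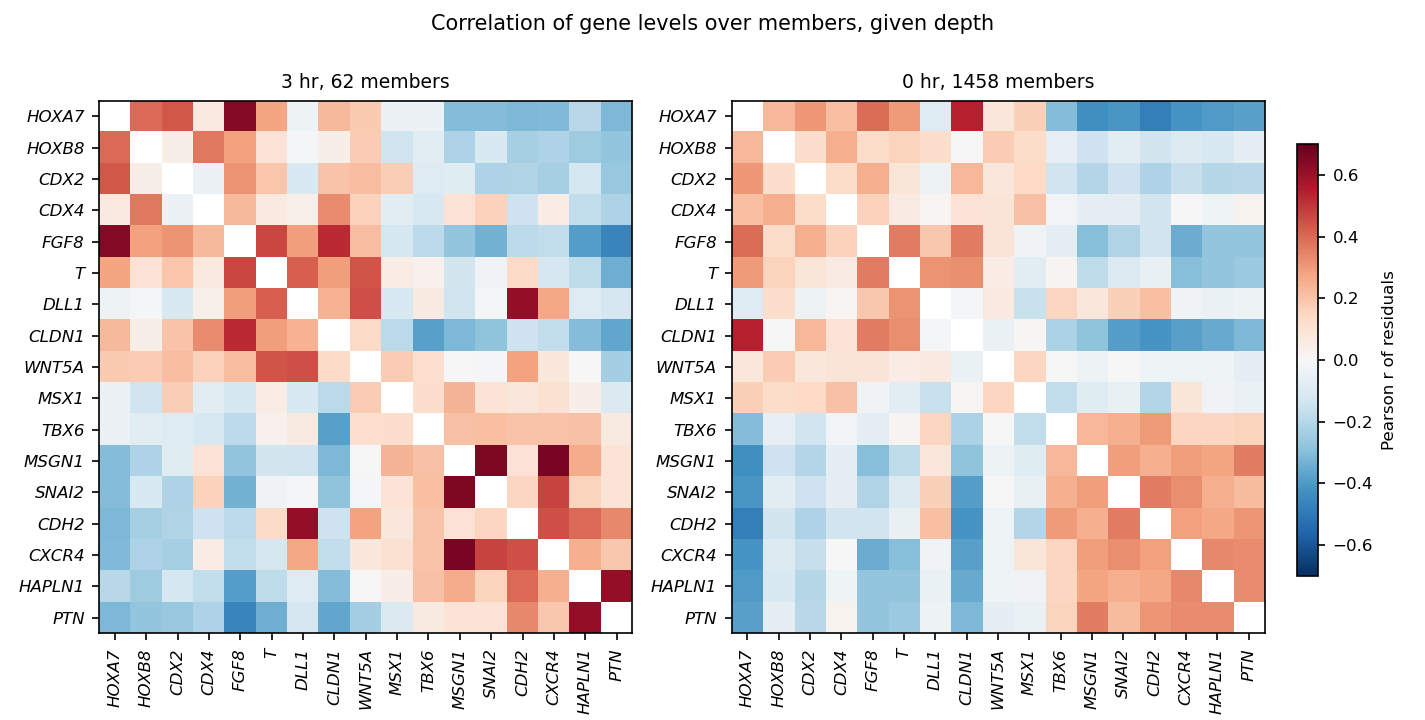
Pearson r between depth-adjusted levels of 17 genes over the 62 members at 3 hr and over the 1458 members at 0 hr, red for positive and blue for negative values. HOXA7, FGF8, T and CLDN1 are positive with each other, HOXA7 with FGF8 reaching 0.64 at 3 hr. HOXA7, FGF8 and CLDN1 are negative with MSGN1, SNAI2, CDH2 and PTN at both times, HOXA7 with CDH2 being at -0.48 at 0 hr.

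To show the levels behind the correlations with MSGN1, members with MSGN1 at or above 200 CPM were set beside members with no MSGN1 UMI. The members are the same ones, so the split restates those correlations and adds no separate support. Both sets also had to pass the limit on HOXA7 plus HOXB8. There were 8 and 41 such members at 3 hr, with 13 in between, and 575 and 569 at 0 hr, with 314 in between. Within 20% of 200 CPM lay 5 members at 3 hr and 126 at 0 hr, so the split is a range cut from 1 gene and not a pair of cell types. At 0 hr HOXA7 was at 1445 CPM in the MSGN1-high (1412 to 1478) and 3226 CPM in the MSGN1-negative members (3176 to 3276), FGF8 at 663 and 1063 CPM and CLDN1 at 263 and 689.8 CPM. In the opposite direction, SNAI2 was at 493 and 246 CPM, CXCR4 at 191 and 49 CPM, PTN at 314 and 75.4 CPM and TBX6 at 124 and 55.2 CPM. At 0 hr MSX1 and CDX4 differed little across the split, with MSX1 at 1634 and 1777 CPM and CDX4 at 1121 and 1213 CPM. At 3 hr, over the 8 and 41 members, CDX4 was at 712 and 734 CPM, but MSX1 was at 820.3 CPM (672 to 992) in the MSGN1-high and 386 CPM (341 to 436) in the MSGN1-negative members. DLL1 turned between the times, at 271 and 459 CPM at 3 hr and 721 and 602 CPM at 0 hr.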

How the data were processed

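Grafts of HH8 or HH4 donor tissue in HH4 hosts were profiled as 10x Genomics 3′ libraries. The authors aligned reads to galGal6 with Cell Ranger (6.1.1 in the deposited headers) and deposited raw UMI counts for each barcode and gene. The deposited gene and barcode lists (other unit: names only) of the HH8-HH4 libraries carried 6940 features by symbol and no mitochondrially encoded gene. The HH4-HH4 0 hr replicates shared 2755 barcodes and were counted as 1 library, of which replicate 2 was used. Columns left unmapped numbered 0.

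Members were taken by the rule in the report. Members, rule and the 23 gene lists were chosen with earlier results of these data known. Counts were summed per group and scaled to 1000000 (CPM). Log2 ratios had 10 CPM added, over genes with at least 100 UMIs in both groups together. Levels carry exact Poisson and shares Clopper-Pearson 95% intervals, and a 0 count was read as up to 3 counts. Thinning drew 2000 UMIs per barcode. With 1 library per time no test between groups was possible, and p-values are absent. Scrublet (scanpy 1.11.5, expected doublet rate 6%) marked doublets, which were kept.

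Named genes were those of the rule, markers and lists, the 12 furthest up and 12 furthest down in each comparison (for members against other donors, ranked by the smaller absolute log2 ratio of the 2 times among genes of 1 sign, with at least 100 UMIs at 0 hr and 50 at 3 hr) and the 12 most variable. Some of these genes are not reported here, and counts over all genes include them. For variation a gene needed 500 UMIs in members at 0 hr and 100 at 3 hr. The 30 genes correlated, the 17 plotted, the split by MSGN1 at 200 CPM, the HINTW limit of 500 CPM and pairs of genes were chosen after values had been seen. Ratios were tested on simulated counts drawn from the members' own means, where all 200 changed genes had the right sign at both times. The changes were 2-fold or 4-fold, in genes expected to lie above the filter of 100 UMIs. No mixed group, doublet or free RNA was simulated, so this checks the calculation and not ratios from few UMIs or mixed groups. Alternatives changed each limit of the rule, the CPM added, the filter on genes and the depth. Scripts ran in Python 3.11.15 with pandas 2.3.3, scipy 1.17.1, numpy 2.4.6 and matplotlib 3.10.9.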

Additional observations from a re-analysis of the deposited data

Results flagged for a closer look

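For 3 genes, members and other donor barcodes stood in opposite order at the 2 times, with at least 1 of the 2 ratios past 2-fold. MNX1 had a log2 ratio of members over other donors of 1.52 at 3 hr and -0.51 at 0 hr. RBM24, an RNA-binding protein of muscle and heart, had -1.18 at 3 hr and 0.36 at 0 hr. PTN had -1.57 at 3 hr and 0.28 at 0 hr. With 1 library per time these differences were not tested, and the other donors held more cells under the HOX limit at 3 hr (30 of 59) than at 0 hr (85 of 572), whose part in the order was not tested.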

How the results depend on the processing

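The share of donor barcodes that were members was 51.2% at 3 hr and 71.8% at 0 hr, and it moved beyond its interval with 3 and 5 of the alternatives. With 1 eGFP UMI as the donor limit it was 23.2% at 3 hr and 66.1% at 0 hr, with a HOX limit of 2000 CPM 40.5% and 56.2%, and with TFAP2A plus DLX5 below 1 UMI 32.2% and 45.1%. At 0 hr it was also 67.9% with at least 5000 UMIs and 74.8% with a HOX limit of 500 CPM. Of genes past 2-fold from other donors at 3 hr (42), 133 were found with 1 eGFP UMI, 110 with genes of at least 20 UMIs, 116 without a filter and 5 after thinning to 2000 UMIs, where fewer genes could be compared. At 0 hr (53) there were 31 with a HOX limit of 2000 CPM, 29 with TFAP2A plus DLX5 below 1 UMI, 32 after thinning and 120 with 1 CPM added. Between 3 hr and 0 hr (75) there were 132 after thinning and 192 with 1 CPM added. The cause was not tested except where stated.

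Of the named genes, 413 of 414 values against other donors kept their direction at 3 hr, 410 of 414 at 0 hr and 372 of 374 between the times. Of the values that kept direction, 54 at 3 hr, 100 at 0 hr and 27 between the times were counted as moved. The genes had been picked by the size of these ratios. Those that turned direction, against donors under the HOX limit (an alternative chosen after seeing the data), were KRT24 at 3 hr (0.44) and COL1A2 (-0.017), RSPO3 (-0.18), ZEB2 (-0.79) and CGN (0.31) at 0 hr. Between the times HINTW turned to 1.05 with TFAP2A plus DLX5 limited to 300 CPM and, in an alternative chosen after seeing the data, to 0.24 without members of over 500 CPM of HINTW. No paired analysis was possible because each time holds 1 library, and for the same reason no library could be left out. The 3 hr values rest on 62 members, against 1458 at 0 hr.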

Other observations

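Genes of growth and the cell cycle separated the groups little. The 57 ribosomal protein genes summed to 288906 CPM in members at 3 hr and 273996 CPM at 0 hr, against 261239 and 246071 CPM in hosts, and 0 of 56 compared passed 2-fold in members between the times. Of 22 S phase genes and 33 G2/M genes compared between the times, 0 passed 2-fold either way, with medians of -0.09 and -0.01. Against other donors, 0 of 17 S phase and 0 of 32 G2/M genes passed at 3 hr and 0 of 22 and 0 of 33 at 0 hr. DNA methylation and chromatin genes had 0 past 2-fold in all 3 comparisons, of 7 to 8 compared.

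Metabolism and stage genes had 0 of 15 past 2-fold from other donors at 3 hr and 2 of 19 at 0 hr, the fatty acid-binding proteins FABP3 (-1.44) and FABP7 (-1.12), both lower in members. Early epiblast genes had 1 lower (ASTL) at each time and GJA1, a gap-junction protein, lower at 3 hr than at 0 hr (-1.04). Streak genes had 4 of 9 lower at 3 hr than at 0 hr (FGF8, T, MESP1 and TBX6), with a median of -0.58. Node and notochord genes had 2 of 8 higher at 3 hr (CHRD and LEFTY1) and 1 lower (T), and both higher genes were more abundant in hosts, LEFTY1 at 90.8 CPM in members and 287 CPM in hosts at 3 hr. Ectoderm genes had 1 of 6 lower at 3 hr (GATA2) and 0 higher, endoderm genes 2 of 8 higher (GATA5 and APOA1) and 1 lower (CXCR4), and stress genes 1 of 16 higher (HSPA2) and 1 lower (GADD45A). For APOA1, as given above, 1 barcode held most of the members' UMIs at each time.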
